A study of Mus musculus with 121 samples.

Results

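The 8 genes described here bring iron into the cell, store it or sense its level, and they were taken by name: Tfrc, Steap3, Fth1, Ftl1, Aco1, Ireb2, Fbxl5 and Pcbp1. All 8 were listed in each of the 3 count tables, which held 60430 gene symbols in all (55351 in the RNA-seq time series, 22493 in the RNA-seq of untreated lines and 25208 in TT-seq). All 8 also passed the filter on low counts in each table, which left 15157, 10892 and 11218 genes to test. The cells were G1E-ER4, a mouse erythroid progenitor line derived from embryonic stem cells that lack the erythroid regulator GATA1 and carry a hormone-activated form of it. The YY1-AID subline carries the transcription factor YY1 with a degron tag, through which auxin causes breakdown of the protein. RNA-seq measured asynchronous YY1-AID cells after 0, 4, 24 and 48 h of auxin with 3 libraries each. A second RNA-seq table held cells that received no treatment, namely the parental line, YY1-AID subline and YY1-AID subline3 (named clone3 in the sample titles), with 2 libraries each. TT-seq, which sequences RNA made during a 5 min pulse of 500 µM 4-thiouridine, measured the same YY1-AID subline untreated and after 4 h of auxin with 3 libraries each. The labels give no activation of GATA1 by hormone for these samples, and the auxin series rests on 1 subline. No untreated library grown for 24 or 48 h was analysed here, and none of parental cells given auxin. Loss of YY1, auxin itself and time in culture therefore cannot be told apart.

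Erythroid cells take up iron bound to transferrin through the transferrin receptor (Tfrc), and in endosomes the ferrireductase Steap3 reduces it so that it can leave for the cytosol. Iron that is not used for heme or iron-sulphur clusters is kept in ferritin, a shell of heavy (Fth1) and light (Ftl1) chains, to which the chaperone Pcbp1 delivers iron. When iron is scarce the iron regulatory proteins Aco1 (IRP1) and Ireb2 (IRP2) bind hairpins in mRNAs, which stabilises Tfrc mRNA and holds back translation of ferritin mRNAs. When iron is plentiful, Fbxl5 marks Ireb2 for breakdown, and Aco1 takes up an iron-sulphur cluster and becomes a cytosolic aconitase. These genes are therefore partly controlled after transcription, and counts of RNA do not measure that control.

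YY1 binds a short DNA core. RefSeq promoters (build GRCm38.p6) were found for 7 of the 8 members, all but Fbxl5, and gave 12 windows of 250 bases before an annotated start. The first window is shown for the 5 members whose RNA changed after auxin, with any copy of the short core ATGGC, read on either strand, in capitals (GCCAT is that core on the other strand). They lie at chr16:32608646-32608895 (plus strand, Tfrc), chr1:120271081-120271330 (minus strand, Steap3), chr7:45459887-45460136 (minus strand, Ftl1), chr4:40143015-40143264 (plus strand, Aco1) and chr6:86526190-86526439 (minus strand, Pcbp1).
Tfrc: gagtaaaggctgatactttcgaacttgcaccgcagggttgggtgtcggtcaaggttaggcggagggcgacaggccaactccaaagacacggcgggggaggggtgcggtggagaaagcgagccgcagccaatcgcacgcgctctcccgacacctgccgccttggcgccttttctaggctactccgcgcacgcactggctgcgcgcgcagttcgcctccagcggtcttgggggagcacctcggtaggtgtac
Steap3: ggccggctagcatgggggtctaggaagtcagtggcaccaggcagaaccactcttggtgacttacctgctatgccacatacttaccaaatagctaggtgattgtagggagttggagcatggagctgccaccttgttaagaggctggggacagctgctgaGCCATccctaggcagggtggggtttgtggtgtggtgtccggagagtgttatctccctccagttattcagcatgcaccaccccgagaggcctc
Ftl1: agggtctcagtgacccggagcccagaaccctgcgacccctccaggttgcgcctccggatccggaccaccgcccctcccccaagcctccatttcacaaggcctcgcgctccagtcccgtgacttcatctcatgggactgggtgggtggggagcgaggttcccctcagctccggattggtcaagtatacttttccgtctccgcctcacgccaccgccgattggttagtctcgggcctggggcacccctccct
Aco1: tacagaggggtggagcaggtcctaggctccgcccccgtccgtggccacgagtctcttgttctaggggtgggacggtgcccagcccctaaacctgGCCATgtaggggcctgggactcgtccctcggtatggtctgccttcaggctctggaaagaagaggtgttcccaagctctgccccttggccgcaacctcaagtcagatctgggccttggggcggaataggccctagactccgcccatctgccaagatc
Pcbp1: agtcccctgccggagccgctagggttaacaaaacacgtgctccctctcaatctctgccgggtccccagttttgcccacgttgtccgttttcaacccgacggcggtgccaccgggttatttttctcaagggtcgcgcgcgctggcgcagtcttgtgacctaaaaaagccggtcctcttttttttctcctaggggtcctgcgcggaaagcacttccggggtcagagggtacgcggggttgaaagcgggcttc
The longer core AAGATGGC was in no member window and in 1.56% of the 32851 windows of all genes. The shorter core ATGGC was in 4 of the 12 member windows, of Steap3, Aco1 and Ireb2, and in 32.9% of all windows, so the members were near the background. In the 50 bases after the start, the letters CAGTG with a C 6 bases before them, the loop of an iron responsive element, were in 0 of the 12 member windows and in 1.58% of all windows. The rest of each mRNA was not searched, so this count does not show whether a member's mRNA holds such an element.

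The total count per library, in units of 1e+06, was 25.1 to 26.2 in the time series, 35.2 to 44.9 in the untreated lines and 30.2 to 53.5 in TT-seq. Yy1 mRNA did not pass the test at any time of auxin (log2 fold changes of 0.11, −0.09 and 0.05 at 4, 24 and 48 h, adjusted p = 0.517, 0.44 and 0.692). The degron acts on the protein, so Yy1 mRNA does not check the labels. Erythroid markers (8 of 10 listed, none at 0) summed to 3310 to 3620 CPM at 0 h and 4320 to 5150 CPM at 48 h in the time series. Gata1 held most of the sum (2340 to 2720 CPM at 0 h and 2910 to 3570 CPM at 48 h). Whether its counts come from the introduced form was not tested. Klf1 (128 to 139 and 111 to 122 CPM) and Epor (73.7 to 75.4 and 54.5 to 57.5 CPM) were lower at 48 h. The other listed markers were higher in CPM on total counts. Whether these marker ranges stay apart after TMM scaling was not tested. In TT-seq Hbb-b1 and Hba-a1 were at 0 in both groups, while Hba-a1 stood at 373 to 445 CPM in RNA-seq at 0 h. The reason for these 0 counts in TT-seq was not tested. Lymphoid markers summed to at most 0.0791 CPM and pluripotency markers to at most 1.03 CPM in the time series. CPM (counts per 1e+06 counts) of marker genes and their sums, here and below, are on total counts without TMM scaling. Levels of the members are CPM on TMM-scaled library sizes, given for replicates 1, 2 and 3 in that order. They are compared only within a gene, because no gene length enters them.

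Both iron uptake genes fell between 4 and 24 h of auxin. Steap3 RNA was at 0.483 times its 0 h level after 24 h and at 0.331 times after 48 h, the strongest fall among the members. Tfrc RNA was at 0.763 and 0.678 times its 0 h level. Pcbp1 was lower at both times, Aco1 was lower at 24 h and Ftl1 was higher at 48 h, while Fth1, Ireb2 and Fbxl5 passed the test against 0 h at no time. At 4 h 0 of 8 members passed the test (threshold: adjusted p of 0.05), where 7.28% of all genes did (3.14% higher and 4.14% lower).

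**Figure D1:**
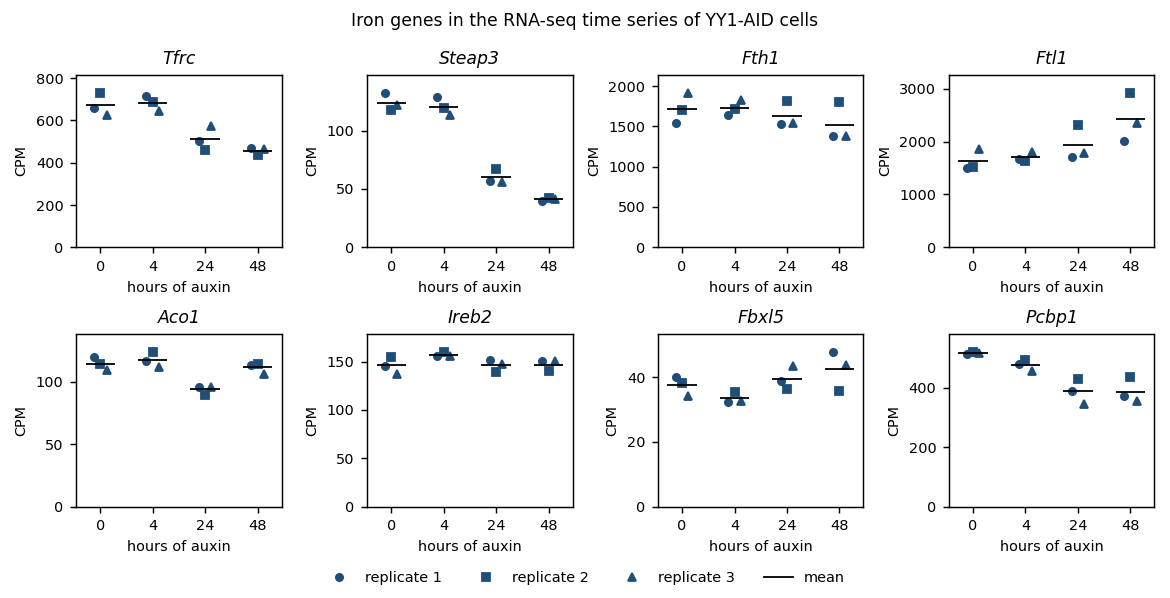
RNA levels of the 8 iron genes in the auxin time series: CPM (linear axis from 0) against hours of auxin, 1 marker per library (shape gives the replicate number) and a line at the mean of 3. Steap3 fell from 118 to 132 CPM at 0 h to 39.8 to 42.0 CPM at 48 h, Tfrc fell less, Ftl1 was higher at 48 h and Ireb2 stayed between 137 and 160 CPM.

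At 24 h 4 of 8 members were lower and 0 higher, and at 48 h 3 were lower and 1 higher. Among all genes 43% passed the test at 24 h (21.5% higher and 21.5% lower) and 49.5% at 48 h (24.9% higher and 24.6% lower), so the share of members called (4 of 8 at both times) was near the background. The libraries of the 4 called members did not overlap with those of 0 h at 24 h and at 48 h, where 52.3% and 57.3% of all genes did not overlap. The median log2 fold change of the members was −0.18 at 24 h and −0.11 at 48 h, beside 0.03 and 0.03 over all genes tested. The 3 comparisons with 0 h share the same 0 h libraries.

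Steap3, the endosomal ferrireductase, stood at 132, 118 and 122 CPM at 0 h, at 129, 119 and 114 CPM at 4 h, at 57.1, 66.8 and 56.1 CPM at 24 h and at 39.8, 42.0 and 41.4 CPM at 48 h. Every library at 24 h was below every library at 0 and 4 h, and every library at 48 h was below those at 24 h. Its log2 fold change against 0 h was −1.05 ± 0.08 (SE, n = 3 per group) at 24 h (adjusted p = 3.86e-07) and −1.60 ± 0.08 at 48 h (adjusted p = 1.10e-08). At 4 h it was −0.04 ± 0.08 (adjusted p = 0.804). The step from 4 to 24 h (−1.01 ± 0.08, adjusted p = 1.44e-06) and that from 24 to 48 h (−0.55 ± 0.08, adjusted p = 0.00191) both passed the test.

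Tfrc, the receptor that takes up transferrin, stood at 661, 730 and 626 CPM at 0 h, at 717, 686 and 647 CPM at 4 h, at 504, 460 and 575 CPM at 24 h and at 470, 435 and 463 CPM at 48 h. All libraries at 24 and 48 h were below all at 0 and 4 h, while the 24 and 48 h groups overlapped. The log2 fold change was 0.02 ± 0.08 at 4 h (adjusted p = 0.912), −0.39 ± 0.08 at 24 h (adjusted p = 0.0017) and −0.56 ± 0.08 at 48 h (adjusted p = 7.58e-05). From 4 to 24 h it fell by 0.42 ± 0.08 on the log2 scale (adjusted p = 0.00161), and from 24 to 48 h the difference was −0.17 ± 0.08 (adjusted p = 0.268).

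Of the ferritin chains the light chain rose, and the heavy chain did not pass the test. Ftl1, the light chain, stood at 1497, 1520 and 1864 CPM at 0 h, at 1672, 1632 and 1802 CPM at 4 h, at 1701, 2314 and 1784 CPM at 24 h and at 2005, 2921 and 2358 CPM at 48 h. The 48 h libraries were all above the 0 h libraries, with replicate 2 the highest at 24 and 48 h. Its log2 fold change was 0.06 ± 0.14 at 4 h (adjusted p = 0.844), 0.25 ± 0.14 at 24 h (adjusted p = 0.163) and 0.58 ± 0.14 at 48 h (adjusted p = 0.00331, a level 1.49 times that of 0 h). Without the filter on low counts Ftl1 also passed the test at 24 h (0.24 ± 0.09, adjusted p = 0.0479), while without replicate 2 at 24 h its fold change was 0.10 (adjusted p = 0.604).

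Fth1, the heavy chain that oxidises iron, stood at 1540, 1698 and 1914 CPM at 0 h, at 1637, 1718 and 1830 CPM at 4 h, at 1524, 1817 and 1546 CPM at 24 h and at 1379, 1800 and 1385 CPM at 48 h. The groups overlapped at every time. The log2 fold change was 0.01 ± 0.11, −0.08 ± 0.11 and −0.17 ± 0.11 at 4, 24 and 48 h (adjusted p = 0.977, 0.608 and 0.204). Replicate 2 was the highest library at 48 h for both chains, and without that library Fth1 was lower at 48 h by the test (−0.32, adjusted p = 0.0142).

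Because both chains are counted in the same library, their ratio does not depend on library size. Relative to the mean at 0 h, the log2 ratio of Fth1 to Ftl1 counts was −0.04, 0.08 and −0.04 in the 0 h libraries, −0.11, −0.01 and −0.06 at 4 h, −0.24, −0.43 and −0.29 at 24 h and −0.62, −0.78 and −0.85 at 48 h. The libraries at 24 h were all below those at 0 and 4 h, and those at 48 h below all at 24 h. The ratio of Tfrc to Ftl1 stood at 0.09, 0.21 and −0.30 at 0 h and at −0.82, −1.48 and −1.08 at 48 h on the same scale. These ratios are descriptions of the same counts and were not tested. Other genes whose symbols begin with Fth or Ftl, which could share reads, held little in the time series. They held 0.0218% to 0.07% of the Fth1 count and 0.218% to 0.327% of the Ftl1 count. Ferritin copies under other symbols were not searched.

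**Figure D2:**
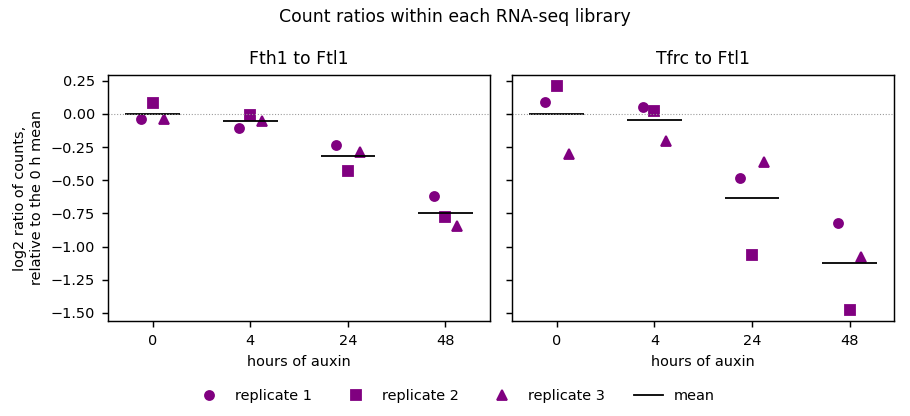
Ratios of counts within each RNA-seq library of the time series, as log2 values relative to the 0 h mean (dotted line), against hours of auxin, with 1 marker per library and a line at the mean. Fth1 to Ftl1 was lowest at 48 h (−0.62 to −0.85), and Tfrc to Ftl1 went from −0.30 to 0.21 at 0 h to −1.48 to −0.82 at 48 h.

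The iron chaperone Pcbp1 stood at 513, 520 and 519 CPM at 0 h, at 481, 494 and 458 CPM at 4 h, at 390, 429 and 347 CPM at 24 h and at 371, 437 and 355 CPM at 48 h. The 4 h libraries were already all below the 0 h libraries, without passing the test (−0.12 ± 0.08, adjusted p = 0.478). Pcbp1 was lower at 24 h (−0.41 ± 0.08, adjusted p = 0.0014) and at 48 h (−0.41 ± 0.08, adjusted p = 0.000974). The fall from 4 to 24 h (−0.30 ± 0.08, adjusted p = 0.0144) did not pass without replicate 2 at 4 h (adjusted p = 0.0574) or without replicate 3 at 24 h (adjusted p = 0.0666). From 24 to 48 h the fold was 0.998 (adjusted p = 0.992).

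Among the sensors, Aco1 dipped at 24 h. It stood at 120, 114 and 110 CPM at 0 h, at 116, 124 and 112 CPM at 4 h, at 95.8, 89.5 and 96.2 CPM at 24 h and at 114, 115 and 106 CPM at 48 h, so that the 24 h libraries lay below all others. Aco1 was lower at 24 h (−0.29 ± 0.06, adjusted p = 0.00173) and at 48 h differed from 0 h by −0.04 ± 0.06 (adjusted p = 0.613). The rise from 24 to 48 h (0.25 ± 0.06, adjusted p = 0.0294) did not pass the test in 5 of the 6 fits that left out 1 library of those times (adjusted p from 0.0521 to 0.119). It passed without replicate 3 at 48 h (0.0385), and it did not pass without the filter on low counts (0.0520).

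Ireb2, the other iron regulatory protein, stood at 146, 155 and 137 CPM at 0 h, at 156, 160 and 156 CPM at 4 h, at 152, 140 and 148 CPM at 24 h and at 150, 140 and 151 CPM at 48 h. Only at 4 h did its libraries lie above all those of 0 h, with a log2 fold change of 0.10 ± 0.06 (adjusted p = 0.338). With Pcbp1 it made 2 of 8 members whose 4 h and 0 h libraries did not overlap, where 27.2% of all genes did not. At 24 and 48 h it differed from 0 h by 0.00 ± 0.06 and 0.01 ± 0.06 (adjusted p = 0.979 and 0.921).

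Fbxl5, the receptor of the ligase that marks Ireb2 for breakdown, was the member with the lowest counts at 0 h. It stood at 39.9, 38.3 and 34.1 CPM at 0 h, at 32.2, 35.4 and 32.6 CPM at 4 h, at 38.7, 36.2 and 43.3 CPM at 24 h and at 47.6, 35.7 and 43.7 CPM at 48 h. The groups overlapped, and the log2 fold changes of −0.17 ± 0.11, 0.08 ± 0.11 and 0.18 ± 0.11 did not pass the test (adjusted p = 0.421, 0.607 and 0.182). Without replicate 2 at 48 h Fbxl5 was higher there (0.28, adjusted p = 0.035).

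**Figure D3:**
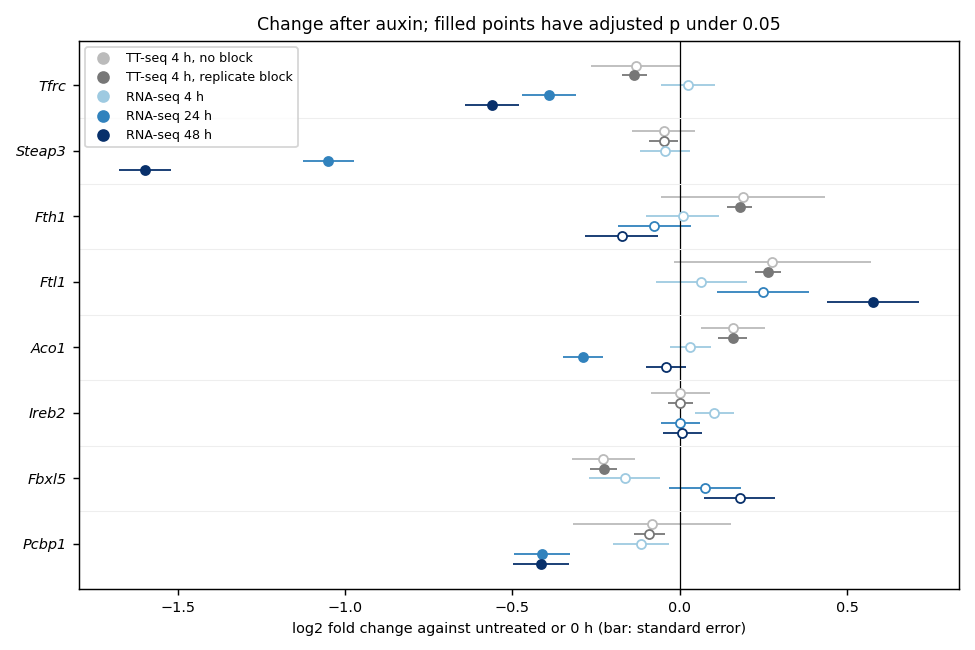
Log2 fold change (horizontal axis, bar: standard error, 3 libraries per group) of each iron gene after auxin in TT-seq at 4 h, without and with the replicate number in the model, and in RNA-seq at 4, 24 and 48 h. Filled points have an adjusted p under 0.05: Steap3 at 48 h (−1.60) lies farthest from 0, and the TT-seq points are filled only with the replicate number in the model.

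Tested between times, 4 of 8 members were lower at 24 h than at 4 h (Tfrc, Steap3, Aco1 and Pcbp1), where 33.6% of all genes passed the test (15.9% higher and 17.7% lower). Libraries of 4 and 24 h did not overlap for 6 of 8 members (these 4, Ireb2 and Fbxl5), and for 46.2% of all genes. Between 24 and 48 h Steap3 was lower and Aco1 higher, where 5.87% of all genes passed (3.03% higher and 2.84% lower). Their libraries were the 2 of 8 that did not overlap, beside 23.7% of all genes. Aco1 differed by −0.32 ± 0.06 from 4 to 24 h (adjusted p = 0.00121). Summed markers of other blood cells moved over the same time, with most of a sum often held by a single gene. Megakaryocyte markers (4 of 4 listed, Gp1bb at 0) summed to 35.4 to 48.7 CPM at 0 h, 107 to 150 CPM at 24 h and 216 to 265 CPM at 48 h. Mast cell markers (3 of 3 listed, Mcpt8 at 0 at 48 h) summed to 33.8 to 55.9 CPM at 0 h and 64.7 to 81.3 CPM at 48 h. Stem and progenitor markers (4 of 4 listed, none at 0) summed to 834 to 982 CPM at 0 h and 659 to 796 CPM at 48 h, and myeloid markers (4 of 4 listed, Mpo at 0 at 0 h) to 30.4 to 32.7 CPM and 41.0 to 42.1 CPM. At 48 h Itga2b held 180 to 226 CPM of the megakaryocyte sum, Cpa3 64.4 to 80.3 CPM of the mast cell sum and Spi1 40.5 to 41.3 CPM of the myeloid sum. Gp9 was also higher (1.11 to 1.96 CPM at 0 h, 20.7 to 23.6 CPM at 48 h). The other listed mast cell and myeloid genes reached at most 0.917 CPM at 48 h. The part of these markers in the changes of the iron genes was not tested. In bulk RNA fewer cells of a type and less RNA per cell cannot be told apart.

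TT-seq shows whether new RNA of the iron genes differed after 4 h. By replicate number the TT-seq libraries deviated together (correlations of 0.402 to 0.657 for the same number). Correlations between other numbers were at most −0.0916, which follows in part from centring each group on its mean. Values are therefore given with and without the number as a block in the model. Without the number in the model 0 of 8 members passed the test, where 9.2% of all genes did (2.11% higher and 7.09% lower). With it 3 members were higher (Ftl1, Fth1 and Aco1) and 2 lower (Fbxl5 and Tfrc), where 47.9% of all genes passed (22.7% higher and 25.3% lower), so the share of members was again near the background.

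Both ferritin chains were higher in every pair of libraries. Nascent Ftl1 stood at 126, 66.3 and 83.4 CPM in untreated cells and at 161, 80.6 and 92.4 CPM after auxin, so that replicate 1 was the highest in both groups and the groups overlapped. Its log2 fold change was 0.28 ± 0.30 without the block (adjusted p = 0.639) and 0.26 ± 0.04 with it (adjusted p = 1.03e-08). Nascent Fth1 stood at 229, 137 and 213 CPM untreated and at 276, 152 and 233 CPM after auxin, again with overlapping groups, and differed by 0.19 ± 0.24 without the block (adjusted p = 0.712) and 0.18 ± 0.04 with it (adjusted p = 1.92e-05).

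Nascent Aco1 stood at 62.3, 72.1 and 62.3 CPM untreated and at 70.2, 79.9 and 69.5 CPM after auxin. It was higher in 3 of 3 pairs (by 0.17, 0.15 and 0.16 on the log2 scale), while the groups overlapped. With the block it was higher by 0.16 ± 0.04 (adjusted p = 0.00106, against 0.372 without it). In RNA-seq at 4 h Aco1 differed by 0.03 ± 0.06 (adjusted p = 0.822), and the 2 assays were not tested against each other.

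Fbxl5 and Tfrc were lower. Nascent Fbxl5 stood at 91.4, 99.2 and 90.0 CPM untreated and at 74.0, 88.7 and 76.7 CPM after auxin, the 1 member of 8 whose groups did not overlap, where 29.3% of all genes did not. It differed by −0.23 ± 0.09 without the block (adjusted p = 0.184) and by −0.23 ± 0.04 with it (adjusted p = 1.01e-06). Nascent Tfrc stood at 278, 299 and 236 CPM untreated and at 253, 280 and 207 CPM after auxin, lower in each pair while the groups overlapped. Its difference was −0.13 ± 0.13 without the block (adjusted p = 0.613) and −0.14 ± 0.04 with it (adjusted p = 0.00109), and it did not pass the test without the pair numbered 3 (adjusted p = 0.0608).

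Nascent Steap3, whose RNA fell most by 24 h, stood at 58.5, 66.3 and 59.8 CPM untreated and at 55.4, 65.7 and 57.4 CPM after 4 h of auxin. The difference was −0.05 ± 0.04 with the block (adjusted p = 0.388). Pcbp1 (−0.09 ± 0.05, adjusted p = 0.106) and Ireb2 (0.00 ± 0.04, adjusted p = 0.976) did not pass the test either. Scaled to the Drosophila spike-in counts with the block, Ftl1 (0.23 ± 0.07, adjusted p = 0.00579), Fbxl5 (−0.27 ± 0.07, adjusted p = 0.00105) and Tfrc (−0.17 ± 0.06, adjusted p = 0.0129) passed the test. Fth1 (0.14 ± 0.06, adjusted p = 0.0534) and Aco1 (0.12 ± 0.07, adjusted p = 0.214) did not. The share of the 45S ribosomal precursor in the counts also followed the replicate number, at 35.4% and 38.8% in the libraries numbered 1, 22.2% and 23.3% in those numbered 2 and 26.9% and 24.6% in those numbered 3. Its part in the levels was not tested.

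**Figure D4:**
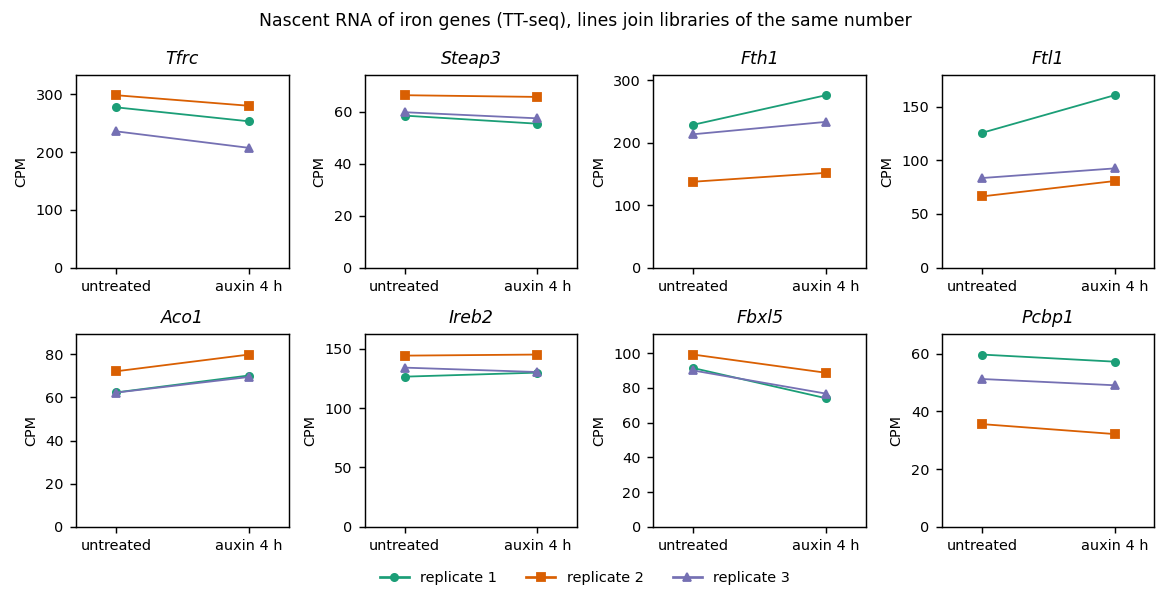
Nascent RNA of the 8 iron genes in TT-seq: CPM (linear axis from 0) in untreated cells and after 4 h of auxin, with a line joining libraries of the same replicate number. Ftl1, Fth1 and Aco1 are higher and Fbxl5, Tfrc, Steap3 and Pcbp1 lower in 3 of 3 pairs, while the pairs themselves lie far apart for the ferritin chains (Ftl1 from 66.3 to 126 CPM untreated).

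The untreated lines show whether the members already differed between parental cells and the sublines. In none of the 3 comparisons of lines did a member pass the test, without or with the replicate number in the model. Between the subline and parental cells edgeR called 0 genes (0%), with 557 at an unadjusted p under 0.05, and DESeq2 called 52 higher and 124 lower. Between subline3 and parental cells edgeR called 0 (0%), with 534 unadjusted, and DESeq2 called 84 higher and 46 lower. Between the sublines edgeR called 9 genes, all higher in subline3 (0.0826%). Groups did not overlap for 2 of 8 members in the subline (Steap3 higher, Fbxl5 lower), 0 of 8 in subline3 and 1 of 8 between the sublines, beside 21.3%, 27.4% and 26.9% of all genes. Libraries numbered 1 and 2 stood far apart within each line for some members, so the spread within a group was wide.

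Tfrc stood at 161 and 439 CPM in parental cells, at 218 and 518 CPM in the subline and at 248 and 471 CPM in subline3 (replicates 1 and 2). Ireb2 stood at 52.6 and 107 CPM, 51.1 and 117 CPM, and 69.4 and 112 CPM in the same order. In every line both genes were higher in the library numbered 2, by 0.92 to 1.44 for Tfrc and 0.68 to 1.19 for Ireb2 on the log2 scale. The ferritin chains went the other way, with Fth1 at 3626 and 2107 CPM in parental cells, 3515 and 2281 CPM in the subline and 2429 and 1857 CPM in subline3. Ftl1 stood at 2000 and 1057 CPM, 2145 and 1339 CPM, and 1763 and 1270 CPM. The median absolute difference between the libraries numbered 1 and 2 over all genes was 0.444, 0.462 and 0.298 in the 3 lines, so the differences of Tfrc, Ireb2 and the ferritin chains were above that median in each line. What the number stands for is not given in the labels.

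Within a number, Tfrc was higher than in parental cells by 0.43 and 0.24 in the subline and by 0.62 and 0.10 in subline3 on the log2 scale (libraries numbered 1 and 2). With the block these differences were 0.33 ± 0.13 (adjusted p = 0.239) and 0.36 ± 0.13 (adjusted p = 0.122). Fth1 in subline3 was below parental cells within both numbers (−0.58 and −0.18), and with the block the difference was −0.38 ± 0.12 (adjusted p = 0.0933). The Fth1 to Ftl1 log2 ratio, relative to the parental mean, was −0.07 and 0.07 in parental cells, −0.21 and −0.16 in the subline and −0.46 and −0.38 in subline3, with no overlap between lines.

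The remaining members differed less between the numbers. Steap3 stood between 118 and 136 CPM, Aco1 between 93.7 and 138 CPM, Fbxl5 between 27.6 and 35.8 CPM and Pcbp1 between 387 and 555 CPM over the 6 libraries. Of the log2 fold changes of these 4 genes against parental cells, from −0.12 (Fbxl5) to 0.20 (Pcbp1), none passed the test. Erythroid markers (9 of 10 listed) summed to 1780 to 2350 CPM in parental cells, 3580 to 4070 CPM in the subline and 3620 to 4370 CPM in subline3. Among them Gata1 overlapped between the lines (793 to 1700, 1040 to 2410 and 1250 to 1920 CPM in the same order). Hbb-b1 did not overlap with parental cells (76.2 to 290, 615 to 1050 and 751 to 1710 CPM). The part of these markers in the differences of the iron genes was not tested.

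**Figure D5:**
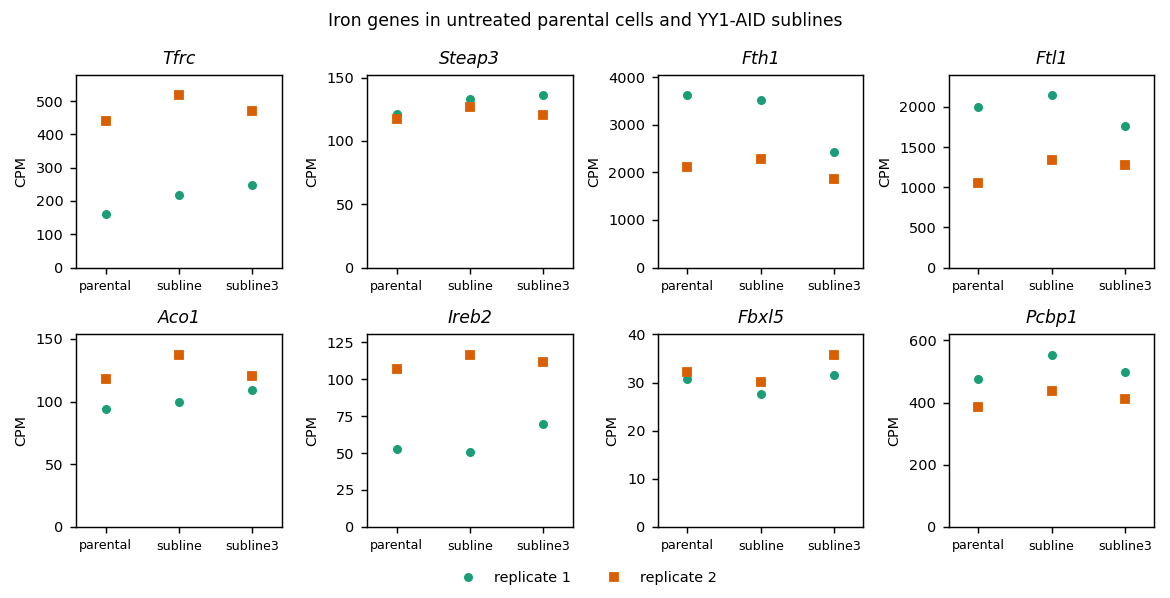
RNA levels of the 8 iron genes in the parental line and both YY1-AID sublines without treatment: CPM (linear axis from 0), 1 marker per library, with shape and colour giving the replicate number. Tfrc and Ireb2 were higher, and Fth1 and Ftl1 lower, in the library numbered 2 of every line (Tfrc at 161 to 248 CPM in the libraries numbered 1 and 439 to 518 CPM in those numbered 2).

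Other genes of iron handling were followed as lists. Of the transport and handling list 18 of 30 passed the filter. At 4 h 1 gene was higher, the iron exporter Slc40a1 (0.80 ± 0.14, adjusted p = 0.00365), which was also higher in nascent RNA (0.92 ± 0.09, adjusted p = 0.000785). At 24 h 3 were higher and 4 lower. Mcoln1, a lysosomal iron channel (0.77 ± 0.10, adjusted p = 6.36e-05), and Blvra, a biliverdin reductase (0.60 ± 0.09, adjusted p = 0.000192), rose. Exoc6, which serves transferrin recycling (−0.49 ± 0.05, adjusted p = 1.22e-05), and Slc11a2, which exports iron from endosomes after Steap3 has reduced it (−0.55 ± 0.09, adjusted p = 0.000214), fell. At 48 h 3 were higher and 5 lower. Ncoa4, which delivers ferritin for breakdown (0.66 ± 0.06, adjusted p = 1.36e-06), rose. Tfr2, the other transferrin receptor (−0.98 ± 0.10, adjusted p = 2.66e-06), Slc39a8, a metal importer (−0.69 ± 0.07, adjusted p = 3.85e-06), and Exoc6 (−0.48 ± 0.05, adjusted p = 9.83e-06) fell. The shares called, 7 of 18 at 24 h and 8 of 18 at 48 h, stood beside 43% and 49.5% of all genes. The list's median log2 fold change was −0.03 at 24 h and 0.07 at 48 h, beside 0.03 over all genes at each time.

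In TT-seq the same list had 2 genes higher without the block, Slc40a1 and Blvra (0.48 ± 0.12, adjusted p = 0.0378), and 8 higher and 4 lower of 16 with it, where 2.11% of all genes were higher without the block and 47.9% passed with it (22.7% higher and 25.3% lower). With the block Slc40a1 (0.93 ± 0.06, adjusted p = 1.53e-28), Hmox1, which breaks down heme and frees its iron (1.23 ± 0.12, adjusted p = 5.11e-18), and Cybrd1, a ferric reductase (1.17 ± 0.18, adjusted p = 6.68e-09), were higher, and Exoc6 was lower (−0.35 ± 0.04, adjusted p = 1.24e-15).

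Most genes of iron-sulphur cluster assembly, which uses iron in mitochondria and cytosol, were lower after 24 and 48 h of auxin. Of 25 tested, 2 were lower and 0 higher at 4 h, 15 lower and 1 higher at 24 h, and 19 lower and 1 higher at 48 h. Of all genes 4.14%, 21.5% and 24.6% were lower at these times. The list's median log2 fold changes were −0.04, −0.26 and −0.36 beside 0.01, 0.03 and 0.03 over all genes. The 2 at 4 h were Nfu1, a cluster carrier (−0.28 ± 0.07, adjusted p = 0.022), and Mms19, which hands clusters to nuclear enzymes (−0.32 ± 0.08, adjusted p = 0.0302). At 48 h Fdxr, ferredoxin reductase (−1.06 ± 0.09, adjusted p = 4.36e-07), Nubp2, a cytosolic scaffold (−0.88 ± 0.09, adjusted p = 2.31e-06), Hspa9, a mitochondrial chaperone (−0.54 ± 0.05, adjusted p = 2.76e-06), and Ciao2a, which helps to mature Aco1 (−0.54 ± 0.06, adjusted p = 1.14e-05), were lower. The 1 higher gene at both times was the cochaperone Hscb (0.74 ± 0.09 at 24 h, adjusted p = 2.81e-05). In TT-seq 3 of 24 were lower without the block (Mms19, Nfu1 and Ciao3), and 14 lower and 1 higher with it, where 7.09% and 25.3% of all genes were lower.

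A list of 8 genes joined parts and partners of the ligase around Fbxl5 with the ubiquitin ligase Nedd4l, the iron chaperone Pcbp1 (itself a member) and Pcbp2. Whether Nedd4l, Pcbp1 or Pcbp2 act on the iron regulatory proteins was not tested. Of the list 0 genes passed at 4 h, 1 was lower at 24 h (Pcbp1 itself) and 1 was higher and 2 lower at 48 h. Of all genes 7.28%, 43% and 49.5% passed the test at these times. The 48 h calls beside Pcbp1 were Skp1, a ligase subunit (−0.27 ± 0.06, adjusted p = 0.00237), and Nedd4l, a ubiquitin ligase (2.47 ± 0.69, adjusted p = 0.00922). Nedd4l RNA varied widely, and at 4 h it differed by −0.85 ± 0.77 (adjusted p = 0.592) with overlapping groups. With the block in TT-seq Nedd4l was higher (0.68 ± 0.07, adjusted p = 4.17e-16) and Cand1 (−0.16 ± 0.04, adjusted p = 0.000252) and Cul1 (−0.09 ± 0.04, adjusted p = 0.0345) were lower. Of all genes 47.9% passed that test (22.7% higher and 25.3% lower). In the subline and subline3 against parental cells edgeR without the block called 0 genes in all, and so 0 of these lists' genes.

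Genes with the most similar profiles were found by Pearson's r of log2 CPM over the 12 time series libraries, among the 8328 genes whose mean log2 CPM reached 3. For Steap3 these were Med22 (0.995), Gramd4 (0.994) and M6pr (0.993), for Tfrc Trpv2 (0.974), Tgfa (0.968) and Orc5 (0.968), and for Pcbp1 Rab1b (0.983), Rad23b (0.976) and Ttll12 (0.971). For Ftl1 they included Mllt3 (0.964) and Arf5 (0.909), for Fth1 Rtca (0.93), Selenow (0.919) and Rpl35 (0.912), and for Aco1 Csf2rb2 (0.931), Golph3 (0.925) and Inpp5d (0.919). Fbxl5 (Btf3l4b at 0.866, Gcc1 at 0.856, Atp8a1 at 0.855) and Ireb2 (Lpin1 at 0.815, Nat2 at 0.775, Arhgap11a at 0.758) had lower values. Both passed the test against 0 h at no time, but so did Fth1, whose values were near those of Aco1. The 12 points share 4 times of auxin, so a gene that moves with time gives high values with many others.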

How the data were processed

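RNA-seq was measured in 18 libraries and TT-seq in 6 of the series' 121 samples. For RNA-seq the authors deposited estimated counts, as whole numbers by gene symbol; Salmon 0.13.1 and build mm9 are named in the submitters' processing notes. TT-seq values are read counts per gene as the authors deposited them, with a table of their own for the Drosophila RNA (500 ng of S2 RNA added to 100 µg). Trim Galore 0.6.10, STAR and SAMtools with mm9 and dm6 are named for TT-seq, per the submitters' processing notes. No source used here says whether counting used strand or introns. Rows without a gene name were dropped (no feature 17.2% to 22.2%, ambiguous 0.391% to 0.529% of a TT-seq library).

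Each table was fitted with edgeR 4.0.16 in R 4.3.3 (TMM, filterByExpr by group, quasi-likelihood F-test, all groups in 1 fit). Adjusted p-values follow Benjamini and Hochberg over all genes tested, with a threshold of 0.05. SE is the size of the log2 fold change divided by the root of F. CPM uses TMM-scaled sizes, except for marker genes and their sums, which use total counts, and log2 CPM has a prior count of 2. The fit was tested on simulated data. There were 9 comparisons.

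Replicates are numbered in the labels, which do not call them separate cultures, so p-values measure only the spread between libraries, which may be technical. In TT-seq all 3 same-number correlations of deviations from group means were over 0.1 (0.402 to 0.657), so the numbers pair the libraries. That pairing comes from the data, not the labels. In the time series 1 of 18 was (−0.0686 to 0.103). In the untreated lines all 6 were (0.628 to 0.738). With 2 libraries per group the deviations mirror each other, so the values for number 2 repeat those for number 1. The number is read as a visible batch, which the main fits leave out and the fits with the block include.

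The members and gene lists were chosen with earlier results of these data known. Beside the 8 members, the text names up to 4 genes per list and comparison, those past the threshold with the smallest p, and per member the 3 genes with the highest r. Some genes that this rule names are not reported here. Lists were other iron transport and handling, iron-sulphur cluster assembly, heme synthesis and export, iron regulatory protein partners, and possible ferritin copies, which also held Pcbp2 and Ftmt, no such copies (3 of 7 tested in the time series, Ftl1-ps1, Ftl1-ps2 and Pcbp2, with 0 called; only Pcbp2 tested in the other tables). Alternatives were DESeq2 1.42.0 (size factors, test), no filter, the replicate block, 2-group fits, spike-in sizes and leaving out libraries. Peak, loop, boundary and domain lists were not used here.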

Additional observations from a re-analysis of the deposited data

Results flagged for a closer look

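RNA levels differed between times of auxin, by the edgeR test of that difference, for 4 members between 4 and 24 h, where auxin and time in culture cannot be told apart: Steap3 (log2 fold change −1.01, adjusted p = 1.44e-06), Tfrc (−0.42, adjusted p = 0.00161), Aco1 (−0.32, adjusted p = 0.00121) and Pcbp1 (−0.30, adjusted p = 0.0144). Between 24 and 48 h they differed for Steap3 (−0.55, adjusted p = 0.00191) and, in the other direction, for Aco1 (0.25, adjusted p = 0.0294), each with 3 of 3 later libraries beyond the earlier ones. The Aco1 rise did not pass the test in 5 of the 6 fits that left out 1 library of those times, and passed without replicate 3 at 48 h (adjusted p = 0.0385). No group had 4 or more samples, so single libraries were not tested for standing apart.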

How the results depend on the processing

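Of the values of single members, every called change of the time series against 0 h kept its direction and its call under all alternatives run. Values near 0 changed sign: Fth1 at 4 h with DESeq2's size factors (−0.005) or test (−0.006), Ireb2 at 24 h with these (−0.012 and −0.017) and without the filter (−0.012), and Ireb2 at 48 h with DESeq2's test (−0.004) and without the filter (−0.008). Without the filter 1 member was higher at 24 h (Ftl1), and from 24 to 48 h Ftl1 passed the test in place of Aco1. In the fit of only 24 and 48 h 0 members were higher (Aco1 at 0.26, adjusted p = 0.0615). In TT-seq Ireb2 (0.002) became −0.001 with DESeq2's test, −0.068 with spike-in sizes, −0.034 with these and the block, and −0.029 with replicates 2 and 3 only.

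Leaving out 1 library at a time gave, at 4 h, −0.039 to 0.071 for Tfrc, −0.081 to 0.08 for Fth1, −0.009 to 0.16 for Ftl1 and −0.025 to 0.053 for Aco1. At 24 h it gave −0.164 to 0.002 for Fth1, −0.046 to 0.038 for Ireb2 and −0.008 to 0.128 for Fbxl5, and at 48 h −0.047 to 0.038 for Ireb2. Members higher at 48 h numbered 1 to 2, and from 24 to 48 h 0 to 1. In TT-seq without the block the ranges were −0.126 to 0.01 for Steap3, −0.007 to 0.399 for Fth1, −0.083 to 0.569 for Ftl1, −0.052 to 0.053 for Ireb2 and −0.269 to 0.125 for Pcbp1. In the untreated lines, where a lone library is assumed to vary like the other groups, they were −0.464 to 1.186 for Tfrc in the subline, −0.286 to 1.155 for Tfrc in subline3 and −0.758 to 0.028 for Fth1.

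With the replicate number as a block TT-seq had 3 members higher and 2 lower (2541 and 2833 genes in all, against 237 and 795 without it), and with spike-in sizes and the block 1 higher and 2 lower (1128 and 2411 genes). Spike-in sizes without the block called 1 gene higher and 0 lower, with 0 members. Leaving out each pair from the blocked fit, chosen after seeing the data, kept 3 members higher and left 2, 2 and 1 lower, with 1565 to 2215 genes higher. Ireb2 was then −0.029 without pair 1 and −0.002 without pair 2. The block changed no call of a member in the time series or the untreated lines. In the untreated lines the labels do not say what the number stands for. There the block called 177 genes higher and 261 lower in the subline, 457 and 223 in subline3, and 483 and 190 between them.

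Other counts over all genes that moved by over 1.5 times were those of DESeq2's test (1029 lower at 4 h against 627, 767 higher and 654 lower from 24 to 48 h against 459 and 430, 153 and 36 between the sublines against 9 and 0), no filter (7 higher and 27 lower in the subline, 1 higher in subline3, 28 and 2 between them), fits of 2 groups (161 lower from 24 to 48 h, 3 higher between the sublines) and replicates 2 and 3 of TT-seq (70 higher and 467 lower). Leaving out any 1 library of the groups compared left 206 to 248 genes higher and 397 to 483 lower at 4 h, 213 to 352 and 164 to 375 from 24 to 48 h, 54 to 172 and 375 to 701 in TT-seq, and 0 to 1 higher between the sublines. The short motif core matched 3 members and the long core 0. Peaks at the members' starts were not run. Depth gave the fewest counts among the members to Fbxl5 at 0 h of the time series (34.1 to 39.9 CPM) and to Pcbp1 in TT-seq (32.2 to 59.7 CPM).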

Other observations

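Heme synthesis and export, the main use of iron in erythroid cells, had genes called in both directions, at shares near those of all genes at 48 h. Of 16 tested genes 2 were higher and 1 lower at 4 h, 5 higher and 7 lower at 24 h, and 3 higher and 5 lower at 48 h, where 7.28%, 43% and 49.5% of all genes passed the test. The median log2 fold changes (0.01, 0.01 and −0.02) were near those of all genes (0.01, 0.03 and 0.03). At 48 h Alas2, the erythroid first enzyme of heme synthesis, was higher (2.33 ± 0.33, adjusted p = 5.87e-05), from 4.57 to 9.15 CPM at 0 h to 29.9 to 47.5 CPM. In the untreated lines the log2 fold change of Alas2 against parental cells was 2.47 ± 0.27 in the subline (adjusted p = 0.0832) and 2.54 ± 0.27 in subline3 (adjusted p = 0.191), with no overlap with the parental libraries. The later enzymes Cpox (−1.04 ± 0.09, adjusted p = 8.69e-07) and Urod (−0.74 ± 0.07, adjusted p = 1.88e-06) were lower at 48 h, and 8 of the 16 genes did not pass the test. At 4 h the heme exporter Flvcr1 (0.43 ± 0.08, adjusted p = 0.00583) and Alas1 (0.35 ± 0.10, adjusted p = 0.0446) were higher and Cpox was lower (−0.33 ± 0.09, adjusted p = 0.0399). Nascent Flvcr1 was higher as well (0.45 ± 0.09, adjusted p = 0.0155), and with the replicate block nascent Cpox was lower (−0.41 ± 0.04, adjusted p = 3.16e-18), with 3 of 16 genes higher and 3 lower, where 47.9% of all genes passed.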
